A study of Mus musculus with 9 samples.

Results

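The BCL2 family of apoptosis regulators was followed in 6620c1, a mouse pancreatic tumor cell line, as 10 genes chosen by symbol from a gene expression table of 24493 rows. They were 3 anti-apoptotic genes (Bcl2, Bcl2l1 and Mcl1), 2 effector genes (Bax and Bak1) and 5 BH3-only genes (Bcl2l11, Bbc3, Pmaip1, Bid and Bmf). All 10 were found, and all 10 were among the 12693 rows that passed the filter of at least 1 TPM in at least 3 libraries. RNA was sequenced from 3 samples each of days 0, 2 and 14 in a nutrient and oxygen deprivation medium. The medium was DMEM in which glucose was 2.5 mM, fetal calf serum 0.5% and each amino acid 20% of the usual amount. The labels give this medium for the day 0 samples as well, list no other treatment, and do not give the oxygen level, and the column headers mark all 9 libraries WT. There was no group kept for 2 or 14 days without deprivation, so time in culture and deprivation cannot be told apart. The labels do not say whether the 3 samples of a day were separate cultures, so p-values rest on a spread between samples that may be technical.

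Proteins of this family set whether the outer membrane of the mitochondrion stays intact. Bax and Bak form the pores that release cytochrome c, the anti-apoptotic proteins hold Bax and Bak in check, and the BH3-only proteins, which carry the short BH3 helix alone, bind the anti-apoptotic proteins or activate the effectors directly. Many members are also controlled after transcription, by cleavage, phosphorylation, sequestration or degradation, and mRNA levels do not show this. The plots and values below give TPM, a share of all transcripts in a library corrected for transcript length, so that levels can be compared between genes. In bulk samples such as these, fewer cells of a kind and less RNA per cell cannot be told apart.

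Sequences upstream of a RefSeq start of 4 of the genes are shown because Bcl2l11 and Bbc3 moved together, Bax fell and Bcl2 rose. They are the 250 bases before the RefSeq start nearest to the GENCODE gene start, build GRCm38.p6, written 5′ to 3′ on the strand of the gene. For Bbc3 that RefSeq start lies 1190 bases downstream of the GENCODE start, so its window lies inside the annotated gene. The bases just after the RefSeq start were not found in a GENCODE transcript for Bbc3 or Bcl2. The windows are chr2:128125788-128126037 on the plus strand (Bcl2l11), chr7:16309333-16309582 on the plus strand (Bbc3), chr7:45466899-45467148 on the minus strand (Bax) and chr1:106714291-106714540 on the minus strand (Bcl2), and none overlaps an annotated exon. Capitals mark matches, on either strand, to 5 motifs: the HIF core ACGTG, the FOXO core TGTTTAC, the CHOP-ATF4 composite TGATGNAA, the E2F core GGCGGGA and the p53 half-site. The HIF core was searched in its ACGTG form only, and GCGTG, which occurs in the Bbc3 and Bcl2l11 windows, was not counted.
Bcl2l11: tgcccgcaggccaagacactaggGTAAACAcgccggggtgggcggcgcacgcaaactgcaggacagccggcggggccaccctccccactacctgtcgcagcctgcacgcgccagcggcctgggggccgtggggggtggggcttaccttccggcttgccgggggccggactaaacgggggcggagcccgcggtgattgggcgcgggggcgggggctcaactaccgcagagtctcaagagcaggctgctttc
Bbc3: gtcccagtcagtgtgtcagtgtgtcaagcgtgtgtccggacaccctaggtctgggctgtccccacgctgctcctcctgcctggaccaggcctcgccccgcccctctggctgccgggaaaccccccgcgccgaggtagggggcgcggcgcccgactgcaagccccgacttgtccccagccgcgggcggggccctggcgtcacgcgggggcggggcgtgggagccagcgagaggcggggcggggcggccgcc
Bax: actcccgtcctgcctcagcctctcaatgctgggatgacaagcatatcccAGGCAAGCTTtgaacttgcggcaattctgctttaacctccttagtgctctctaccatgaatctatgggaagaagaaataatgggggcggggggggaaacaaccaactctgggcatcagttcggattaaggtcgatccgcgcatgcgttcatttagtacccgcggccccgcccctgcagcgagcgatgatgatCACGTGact
Bcl2: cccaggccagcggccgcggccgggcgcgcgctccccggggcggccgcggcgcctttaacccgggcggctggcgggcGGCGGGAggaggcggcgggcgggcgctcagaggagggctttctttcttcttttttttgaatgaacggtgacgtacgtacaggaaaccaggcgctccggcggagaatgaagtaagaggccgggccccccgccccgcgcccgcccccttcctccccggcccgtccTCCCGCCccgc

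The Bcl2l11 window held 1 match to the FOXO core, which 3.17% of 32851 RefSeq promoter windows of the same length contain. The Bax window held 1 p53 half-site (7.13% of windows) and 2 overlapping matches to the HIF core, 1 on each strand (at least 1 match in 16.6% of windows). In the Bcl2 window the E2F core was matched 2 times (at least 1 match in 9.75% of windows), and the Bbc3 window matched none of the 5 motifs as written above. The share of windows with 2 matches was not counted. The windows compared were not matched for base content, and that of Bcl2 is 74.8% G or C. The CHOP-ATF4 composite, found in 3.45% of windows, matched in none of these 4. A match is a run of letters and shows no binding. The other members with an entry, Bcl2l1, Mcl1, Bak1, Bid and Bmf, had no match in their own windows, of which that of Bak1 lay wholly inside annotated exons.

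Of 8 markers of pancreatic duct epithelium, the keratins Krt8, Krt18 and Krt19 were the most abundant, and the 8 summed to between 5483 and 11450 TPM. From 10800 TPM or more at day 0 the sum went to at most 7611 TPM at day 2, and Cldn4, the lowest of the list on each day, had a mean of at most 1.34 TPM. The markers of other cell types were near 0, with summed levels of at most 5.92 TPM for acinar cells, 13.2 TPM for leukocytes and macrophages, 3.12 TPM for fibroblasts and 0.979 TPM for endothelium. Leukocyte and macrophage markers went from 2.24 to 2.56 TPM in sum at day 0 up to a range of 9.46 to 13.2 TPM on day 14, most of it Cd68 (mean 6.32 TPM). The other sets were also higher on day 14 without overlap. Acinar markers went from 1.27 to 1.53 TPM up to 4.39 to 5.92 TPM. Fibroblast markers went from 0.16 to 0.26 TPM up to 0.67 to 1.45 TPM, and endothelium from at most 0.10 TPM up to 0.42 to 0.98 TPM. The part of any of these sets in the results was not tested. A row named Mir6236 took 22.5% of all TPM in day 2 replicate 3 against 8.27% to 14.6% elsewhere, and so lowers the other values of that library. Over all tested genes the median log2 fold change from day 0 was -0.02 at day 2 and 0.22 at day 14. From day 2 to day 14 it was 0.25. Median-of-ratios scaling moved the day 14 values to -0.05 against day 0 and -0.01 against day 2. Quantile normalization moved them to -0.02 and -0.06. Leaving out the 20 most abundant rows moved the day 2 median to 0.15, and leaving out Mir6236 and Rn45s moved it to 0.09.

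After 2 days the 3 classes went different ways. The effectors Bax and Bak1 were both lower, 4 of the 5 BH3-only genes were higher and Bid was lower, and the anti-apoptotic genes split. In all, 9 of the 10 members passed the test (limma on log2(TPM + 1), adjusted p under 0.05, 5 higher and 4 lower), where 59% of all tested genes passed, 27.1% higher and 31.9% lower. The values of the 2 days did not overlap for these 9 members, 5 higher and 4 lower, which was the case for 66.5% of all tested genes, 31.7% higher and 34.8% lower. The median log2 fold change was -0.15 for the anti-apoptotic genes, -1.38 for the effectors and 1.54 for the BH3-only genes, beside -0.02 for all tested genes. At day 14 against day 0, 7 of the 10 passed (4 higher and 3 lower), where 55.1% of all tested genes passed, 36.2% higher and 18.8% lower. The class medians were then 0.26, -1.15 and 1.33, beside 0.22 for all tested genes. The values of days 0 and 14 did not overlap for 8 members, 5 higher and 3 lower, against 66.6% of all tested genes, 43.2% higher and 23.3% lower.

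**Figure D1:**
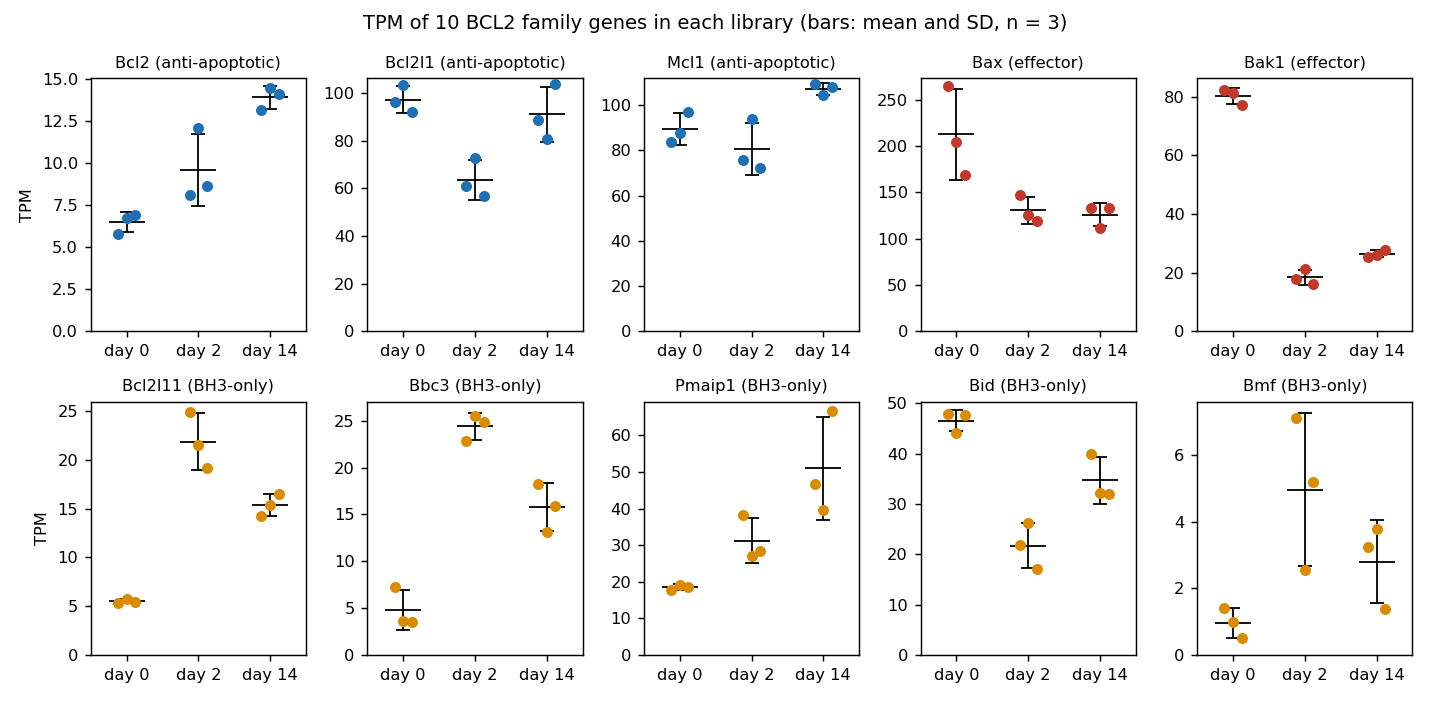
TPM (vertical axes, from 0) of each of the 10 genes at day 0, day 2 and day 14. Points are libraries, and black bars give the mean and SD of 3 libraries. Bak1 fell from about 80.2 to 18.3 TPM between day 0 and day 2, while Bcl2l11 and Bbc3 were highest at day 2 and Pmaip1 and Bcl2 at day 14.

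Among the anti-apoptotic genes, Bcl2, whose protein guards mitochondria and the endoplasmic reticulum, was the least abundant and rose. Its level was 5.82, 6.72 and 6.93 TPM at day 0, 8.12, 12.1 and 8.66 TPM at day 2, then 13.2, 14.5 and 14.1 TPM at day 14. Each later day lay above the one before without overlap, although day 2 replicate 2 stood well above the other day 2 libraries. Its log2 fold change was 0.49 at day 2 (SE 0.15, limma, adjusted p = 0.0205) and 0.997 at day 14 (SE 0.15, limma, adjusted p = 0.000662). The call at day 2 was lost without day 0 replicate 1 (limma, adjusted p = 0.0729) or without day 2 replicate 2 (adjusted p = 0.0501).

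Bcl2l1, the gene of BCL-XL, was lower at day 2. It stood at 96.2, 103.5 and 92.2 TPM at day 0, 60.8, 72.8 and 56.6 TPM at day 2, then 88.9, 80.8 and 104 TPM at day 14. The day 2 libraries were all below the other 6, and days 0 and 14 overlapped. From day 0 it changed on the log2 scale by -0.62 at day 2 (SE 0.13, limma, adjusted p = 0.00272) and -0.10 at day 14 (SE 0.13, limma, adjusted p = 0.529). With median-of-ratios scaling the day 14 value was -0.39 and passed (limma, adjusted p = 0.0112).

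Mcl1 codes for a short-lived protein that must be made continuously. Its level was 83.6, 87.7 and 97.1 TPM at day 0, 75.9, 93.9 and 72.1 TPM at day 2, then 109, 104 and 108 TPM at day 14. Days 0 and 2 overlapped, and every day 14 library was above every earlier one. The log2 fold change from day 0 was -0.15 at day 2 (SE 0.12, limma, adjusted p = 0.275) and 0.26 at day 14 (SE 0.12, limma, adjusted p = 0.0816), so neither passed. The day 2 value turned to 0.18 with quantile normalization and to 0.01 without the 20 most abundant rows. The day 14 value turned to -0.03 with median-of-ratios scaling and passed in 5 of 21 alternatives, with quantile normalization at 0.34 (limma, adjusted p = 0.013).

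Within the anti-apoptotic class the balance between Mcl1 and Bcl2l1 shifted, a ratio that scaling between libraries cannot change. The ratio of Mcl1 to Bcl2l1 was 0.869, 0.847 and 1.05 at day 0, 1.25, 1.29 and 1.27 at day 2 and 1.23, 1.29 and 1.04 at day 14. Day 2 lay above day 0 without overlap, and day 14 overlapped with both. Bcl2 made up 3.36% ± 0.201 of the summed anti-apoptotic TPM at day 0 and 6.58% ± 0.590 on day 14 (SD, n = 3).

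The effectors were lower on both later days. Bax was the most abundant of the 10 genes on every day, at 265, 204 and 168 TPM at day 0, 147, 125 and 119 TPM at day 2, then 133, 112 and 133 TPM at day 14. The day 0 libraries were spread widely and all lay above the other 6. Its log2 fold change was -0.68 at day 2 (SE 0.17, limma, adjusted p = 0.00641) and -0.73 at day 14 (SE 0.17, limma, adjusted p = 0.00521). Quantile normalization ended the call at day 2, at -0.25 (limma, adjusted p = 0.226), and kept that at day 14.

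Bak1, whose protein sits in the outer membrane of mitochondria from the start, fell furthest. It stood at 82.2, 81.3 and 77.2 TPM at day 0, 17.9, 21.1 and 16.1 TPM at day 2, then 25.3, 26.1 and 27.8 TPM at day 14. The 3 days did not overlap, and both later days were far below day 0. On the log2 scale the change was -2.08 at day 2 (SE 0.11, limma, adjusted p = 1.16e-06) and -1.57 at day 14 (SE 0.11, limma, adjusted p = 2.24e-05), and it passed in each of the 21 alternatives tried on both days. In the table Bak1 lay between percentiles 92.1 and 93.1 of all rows at day 0 and between percentiles 75.9 and 77.9 at day 2.

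The effectors did not fall by the same factor. The ratio of Bax to Bak1 was 3.23, 2.51 and 2.18 at day 0, 8.26, 5.91 and 7.41 at day 2 and 5.26, 4.28 and 4.78 at day 14. These ratios, which do not depend on scaling between libraries, did not overlap between any pair of days. In the GENCODE annotation exons of Bak1 overlap those of Ggnbp1 on the other strand, and whether the counting used strand is not given in the sources used here. Ggnbp1 itself was listed at 4.18 to 5.79 TPM at day 0, 22.0 to 34.0 TPM at day 2 and 14.6 to 21.5 TPM at day 14, and the part of shared reads in either value was not tested. Exons of Bax overlap those of Gm45808 on the same strand, where strand cannot separate the reads. Those of Bcl2 overlap D630008O14Rik on the other strand. Neither Gm45808 nor D630008O14Rik was listed under that name, and the part of shared reads was not tested there either.

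**Figure D2:**
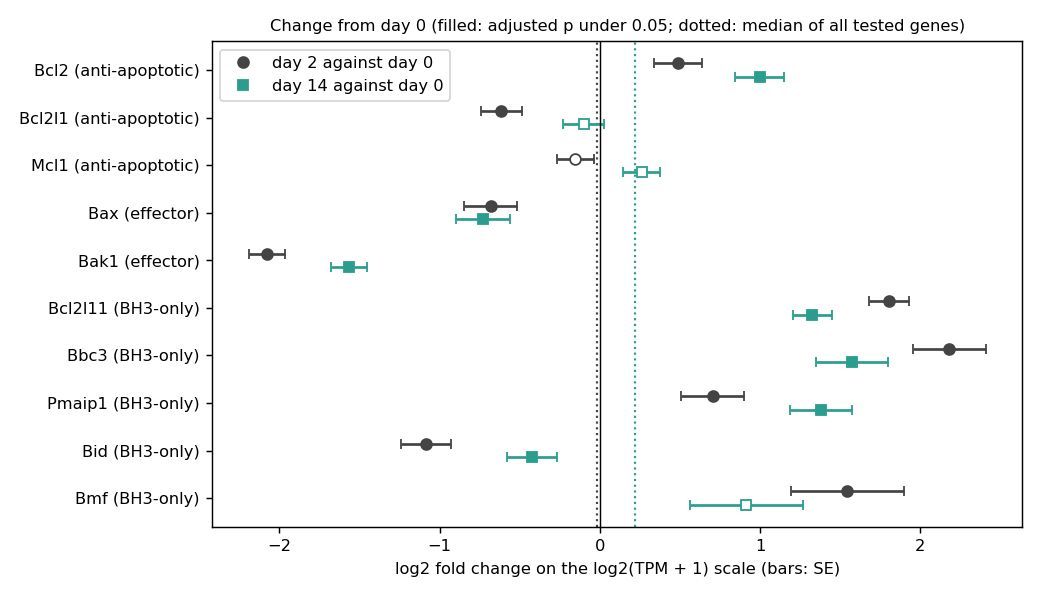
Log2 fold change from day 0 on the log2(TPM + 1) scale (horizontal axis) of each gene at day 2 (circles) and day 14 (squares), with SE from limma. Filled symbols passed at an adjusted p under 0.05, and the dotted lines mark the medians of all tested genes, -0.02 and 0.22; the effectors lie to the left of both lines and the BH3-only genes other than Bid to the right.

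The BH3-only members other than Bid were higher at day 2. Bcl2l11, the gene of BIM, which binds all the anti-apoptotic proteins named here, stood at 5.31, 5.76 and 5.48 TPM at day 0, 25.0, 21.5 and 19.1 TPM at day 2, then 14.2, 15.4 and 16.5 TPM at day 14. The 3 days did not overlap, with day 2 highest and day 14 between. Its log2 fold change was 1.80 at day 2 (SE 0.12, limma, adjusted p = 3.94e-06) and 1.33 at day 14 (SE 0.12, limma, adjusted p = 5.69e-05), and both passed in each of the 21 alternatives.

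Bbc3, the gene of PUMA, known as a target of p53, followed the same order of days. Its level was 7.27, 3.66 and 3.55 TPM at day 0, 22.8, 25.5 and 24.9 TPM at day 2, then 18.2, 13.2 and 15.9 TPM at day 14. Day 0 replicate 1 stood above the other day 0 libraries and below every later library. The log2 fold change was 2.18 at day 2 (SE 0.23, limma, adjusted p = 4.51e-05) and 1.57 at day 14 (SE 0.23, limma, adjusted p = 0.000484). Both calls held in each of the 21 alternatives, including the fit without that library.

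Pmaip1, the gene of NOXA, which binds MCL1 and promotes its breakdown, kept rising to day 14. It stood at 17.7, 19.2 and 18.7 TPM at day 0, 38.2, 27.0 and 28.3 TPM at day 2, then 46.8, 39.5 and 66.6 TPM at day 14. No pair of days overlapped, and the spread between libraries was widest at day 14. Against day 0 the log2 fold change was 0.70 at day 2 (SE 0.20, limma, adjusted p = 0.012) and 1.38 at day 14 (SE 0.20, limma, adjusted p = 0.000442).

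Bmf, whose protein is held on the cytoskeleton and released on loss of attachment, was the least abundant member. It stood at 1.42, 0.978 and 0.512 TPM at day 0, 7.12, 2.56 and 5.19 TPM at day 2, then 3.23, 3.78 and 1.39 TPM at day 14. Day 2 lay above day 0, and day 14 overlapped with both. On the log2 scale the change was 1.54 at day 2 (SE 0.35, limma, adjusted p = 0.00448) and 0.91 at day 14 (SE 0.35, limma, adjusted p = 0.0515). The day 14 value passed in 8 of 20 alternatives, and at these low levels the added 1 TPM understates the change.

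Bid, which codes for a protein that caspase 8 cleaves to link death receptors to mitochondria, was lower. Its level was 47.9, 44.2 and 47.7 TPM at day 0, 21.8, 26.2 and 17.1 TPM at day 2, then 40.02, 32.1 and 31.9 TPM at day 14. All day 2 libraries lay below day 14, and all day 14 libraries below day 0. The log2 fold change was -1.09 at day 2 (SE 0.16, limma, adjusted p = 0.000329) and -0.42 at day 14 (SE 0.16, limma, adjusted p = 0.0451). The day 14 call was lost in 8 of 21 alternatives, among them the fits without day 0 replicate 1, 2 or 3, day 2 replicate 1, or day 14 replicate 2 or 3 (limma, adjusted p from 0.0557 to 0.124). Exons of Bid overlap those of Bcl2l13 on the other strand, a gene listed at 20.3 to 33.2 TPM.

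The make-up of the BH3-only class, as the 5 members followed here, differed between days. Of the summed BH3-only TPM, Bid accounted for 61.0% ± 1.62 at day 0, 20.8% ± 4.02 at day 2 and 29.2% ± 4.51 on day 14 (SD, n = 3). The share of Pmaip1 was 24.3% ± 1.92, 29.8% ± 3.51 and 42.2% ± 7.06 on the same days. Bcl2l11 took 7.24% ± 0.568 at day 0 and 21.0% ± 0.749 at day 2, and Bbc3 6.26% ± 2.50 and 23.7% ± 3.39. Among these 5 genes Bid held most of the summed TPM at day 0, and at day 2 the largest share in any library was 33.3%, that of Pmaip1. The sum leaves out Bad, a further BH3-only gene, whose mean was 57.3 TPM at day 0 and 48.7 TPM at day 2. Those of Bid were 46.6 and 21.7 TPM, and those of Pmaip1 18.5 and 31.2 TPM.

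**Figure D3:**
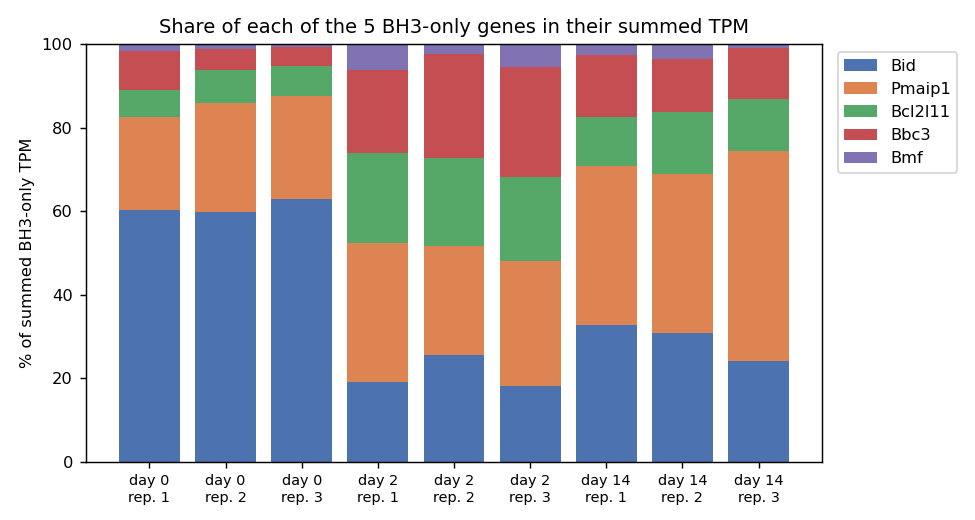
Share of each BH3-only gene in the summed TPM of the 5 (vertical axis, percent) in each of the 9 libraries. Bid holds 59.9% to 62.8% in the day 0 libraries, 18.1% to 25.5% at day 2 and 24.1% to 32.7% at day 14.

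Set against each other, the classes changed in relative abundance. The summed TPM of the 3 anti-apoptotic genes was 193 ± 6.69 at day 0, 154 ± 22.0 at day 2 and 212 ± 13.3 on day 14 (SD, n = 3). That of the effectors was 293 ± 51.3, 149 ± 15.2 and 152 ± 12.6, and that of the BH3-only genes 76.4 ± 2.94, 104 ± 10.2 and 119.6 ± 14.4. The ratio of BH3-only to anti-apoptotic TPM was 0.429, 0.373 and 0.387 at day 0, 0.793, 0.575 and 0.689 at day 2 and 0.580, 0.521 and 0.585 at day 14. Every later library exceeded every day 0 library, and days 2 and 14 overlapped. This holds for the members followed here only. Bad, a BH3-only gene left out of the sum, was at 57.3, 48.7 and 49.0 TPM on the same days. It was not called on either later day, and a ratio that counts it was not made.

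The ratio of effector to anti-apoptotic TPM moved the other way. It was 1.87, 1.44 and 1.25 at day 0, 1.14, 0.817 and 0.983 at day 2 and 0.751, 0.691 and 0.710 at day 14, with no overlap between days. Sums are dominated by the most abundant member (Bax among the effectors), they describe mRNA only, and no test was made on them since the classes were set with results of these data known.

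**Figure D4:**
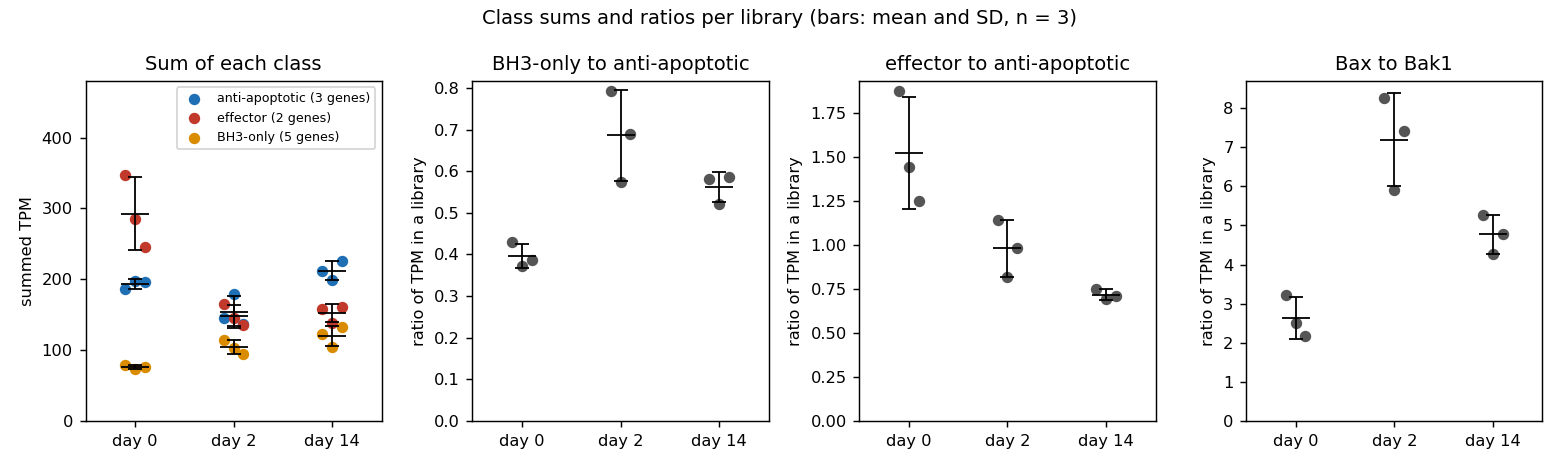
Summed TPM of each class (left) and ratios of TPM within a library (BH3-only to anti-apoptotic, effector to anti-apoptotic, Bax to Bak1), by day, with the mean and SD of 3 libraries. The effector to anti-apoptotic ratio runs from 1.25 to 1.87 at day 0 and from 0.691 to 0.751 at day 14.

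The order of levels within a day changed with these shifts. At day 0 it ran Bax, Bcl2l1, Mcl1, Bak1, Bid, Pmaip1, Bcl2, Bcl2l11, Bbc3 and Bmf, where the neighbours Bcl2l1 and Mcl1, and Bcl2l11 and Bbc3, overlapped. At day 2 Pmaip1 came after Bax, Mcl1 and Bcl2l1, and Bbc3, Bcl2l11, Bid and Bak1 followed with overlap between neighbours. At day 14 Bak1 was below Pmaip1 and Bid, and above Bbc3, Bcl2l11 and Bcl2, of which neighbours overlapped.

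Between day 2 and day 14, 7 of the 10 members passed the test, where 31.2% of all tested genes passed, 27.4% higher and 3.79% lower. Bcl2, Bcl2l1, Mcl1, Bak1, Pmaip1 and Bid were higher at day 14 and Bcl2l11 was lower. The counts were 0 higher and 2 lower (Bcl2l11 and Bbc3) under median-of-ratios scaling and under quantile normalization. Over all tested genes the main counts of 3474 higher and 481 lower then became 1572 and 1485 under median-of-ratios scaling. Quantile normalization gave 1470 and 1905. The members called were 4 in all without the 20 most abundant rows, with only the 2 groups compared or without day 2 replicate 1, and 3 without day 2 replicate 3 or day 14 replicate 3. The 2 days did not overlap for 8 members, 6 higher and 2 lower, against 41.3% of all tested genes, 35.1% higher and 6.11% lower. From day 2 to day 14 the log2 fold change was 0.51 for Bak1 (SE 0.11, limma, adjusted p = 0.00956), 0.66 for Bid (SE 0.16, limma, adjusted p = 0.0121) and 0.52 for Bcl2l1 (SE 0.13, limma, adjusted p = 0.0151). Less the median of all tested genes these were 0.26, 0.42 and 0.27. Mcl1 was at 0.42 (SE 0.12, limma, adjusted p = 0.0243), or 0.17 less that median, and lost its call in 9 of 21 alternatives. Bcl2l11 was at -0.48 (SE 0.12, limma, adjusted p = 0.018), or -0.72 less that median, and Bbc3, which did not pass, at -0.61 (SE 0.23, limma, adjusted p = 0.0686), or -0.86. The lower value of Bcl2l11 was the call that held under all the scalings tried, and it was lost with only the 2 groups compared (limma, adjusted p = 0.0579), without day 2 replicate 1 (adjusted p = 0.0561) or without day 14 replicate 1 (adjusted p = 0.0504).

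Across the 9 libraries, which fall into the 3 days, members correlated with each other as a description of these shifts. On the log2(TPM + 1) scale Pearson's r was 0.94 for Bcl2l11 with Bbc3, -0.98 for Bak1 with Bcl2l11 and 0.88 for Bak1 with Bid. For the member of each class with the largest called change, the tested genes with the nearest pattern over the 9 libraries were Nme2, Snrpa1 and Hspbp1 for Bak1 (r from 0.9959 to 0.998), Tnfrsf22, Ctdsp2 and Fam210b for Bbc3 (r from 0.9817 to 0.9849), and Kctd15, Ninl and Nsun4 for Bcl2 (r from 0.9812 to 0.9883). Predicted genes (names of Gm and a number, or ending in Rik) and Mir and Snor rows were left out of this search. A high r is common in these data, since 1498 of the remaining tested genes exceeded 0.9 with Bak1, 720 with Bbc3 and 571 with Bcl2.

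Of 6 other anti-apoptotic genes, Bcl2a1a, Bcl2a1b, Bcl2a1c, Bcl2a1d and Bcl2l10 were listed at 0 in all libraries. Bcl2l2, the gene of BCL-W, was at 8.34 ± 0.732, 9.22 ± 1.23 and 12.6 ± 0.902 TPM on the 3 days (SD, n = 3). It rose at day 14 (log2 fold change 0.54, limma, adjusted p = 0.00699), a call lost with median-of-ratios scaling (0.27, adjusted p = 0.0711) and quantile normalization (0.19, adjusted p = 0.198).

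Bok, an effector-like relative of Bax and Bak1, fell with them. Its level was 126, 122 and 134 TPM at day 0, 53.6, 33.5 and 53.8 TPM at day 2, then 69.4, 59.8 and 47.2 TPM at day 14. All later libraries lay below day 0, and days 2 and 14 overlapped. Against day 0 the log2 fold change was -1.45 at day 2 (SE 0.20, limma, adjusted p = 0.000236) and -1.12 at day 14 (SE 0.20, limma, adjusted p = 0.00144). Bcl2l13, a mitophagy receptor, fell at day 2 by 0.47 on the log2 scale (limma, adjusted p = 0.00984). Bcl2l12 had a log2 fold change of -0.48 at day 2 (limma, adjusted p = 0.0379), which was lost in 9 of 21 alternatives, among them the fits without day 0 replicate 1 or 3 or day 2 replicate 1 or 3 (adjusted p from 0.0792 to 0.125), and Bcl2l15 did not pass (limma, adjusted p = 0.415 at day 2).

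The BH3-like mitophagy receptor genes Bnip3 and Bnip3l, both known targets of HIF, rose more than any of the 10 members. Bnip3l stood at 18.4 ± 1.13, 159 ± 9.86 and 99.2 ± 7.41 TPM on the 3 days (SD, n = 3), with log2 fold changes of 3.05 and 2.37 from day 0 (limma, adjusted p = 1.88e-07 and 2.28e-06). Bnip3 was at 6.62 and 5.70 on the same scale of change. Bad, whose protein is kept inactive by phosphorylation, was at 57.3 ± 6.89, 48.7 ± 6.38 and 49.0 ± 4.66 TPM and did not pass (limma, adjusted p = 0.169 and 0.196). Becn1, an autophagy gene whose protein carries a BH3 stretch, was higher at day 14 by a log2 fold change of 0.35 (limma, adjusted p = 0.0176), a call lost with median-of-ratios scaling (0.05, adjusted p = 0.595) and without day 0 replicate 1 or 2 or day 14 replicate 3. Bik and Hrk stayed below 1 TPM in all libraries and were not tested, as was Bcl2l14, with at most 2.24 TPM.

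**Figure D5:**
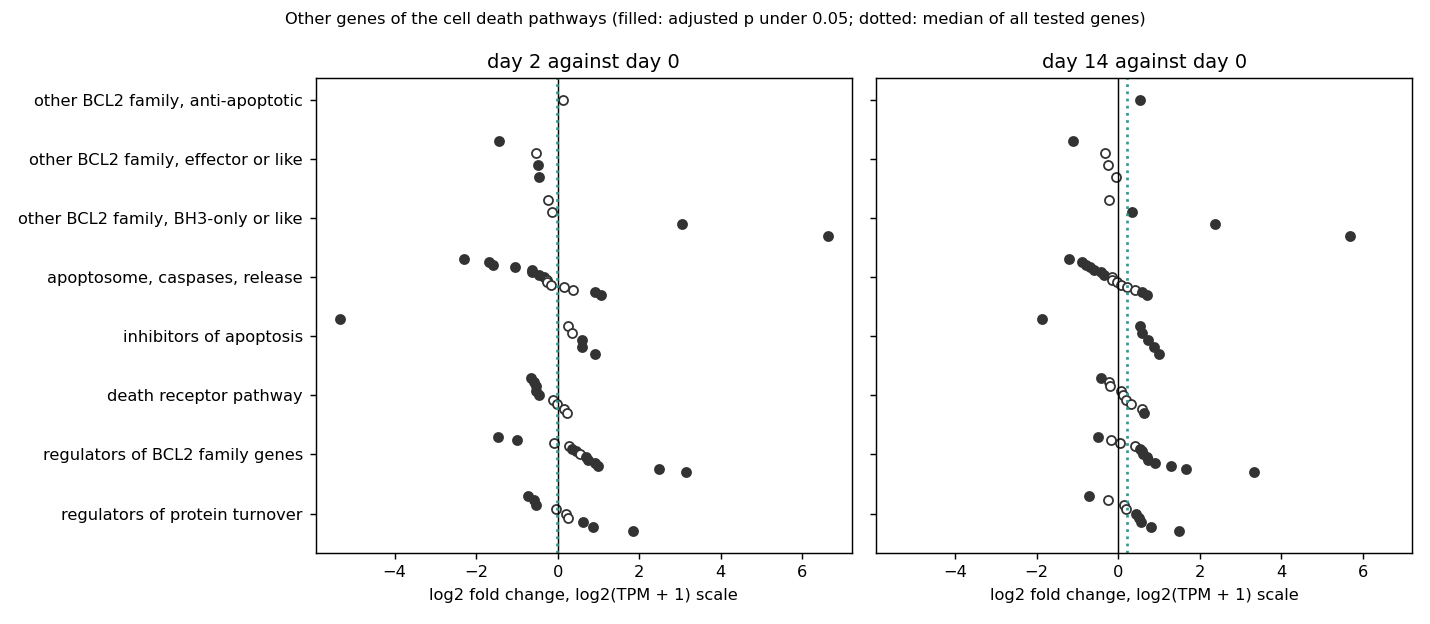
Log2 fold change on the log2(TPM + 1) scale (horizontal axes) of the tested genes of 8 lists, at day 2 (left) and day 14 (right) against day 0. Each point is a gene, filled where it passed at an adjusted p under 0.05, and dotted lines mark the medians of all tested genes; the far right points are Bnip3 and the far left points Birc5.

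Downstream of the family stand the genes for the apoptosome, the caspases and the proteins released from mitochondria. Of 15 genes 2 rose and 8 fell at day 2 (3 and 6 under quantile normalization), with a median of -0.34, where 27.1% of all tested genes rose and 31.9% fell. At day 14, 2 rose and 7 fell (0 and 6 under quantile normalization), with a median of -0.16, where 36.2% of all tested genes rose and 18.8% fell. Over all tested genes 3688 rose and 3470 fell at day 2 under quantile normalization. At day 14 the main counts of 4601 and 2389 became 2843 and 3363 under quantile normalization and 3085 and 4027 under median-of-ratios scaling. These stand beside the rescaled counts of each list below as well. Cycs, the gene of cytochrome c, had log2 fold changes of -2.30 and -0.88. Htra2, a mitochondrial protease that can relieve the block on caspases, went from 118 ± 10.5 TPM at day 0 to 36.5 ± 8.99 at day 2 and 51.0 ± 8.07 on day 14 (SD, n = 3), with log2 fold changes of -1.69 and -1.20 (limma, adjusted p = 4.74e-05 and 0.000546).

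Among 6 tested inhibitors of apoptosis 3 rose and 1 fell at day 2 (4 and 1 under quantile normalization), and 5 rose and 1 fell at day 14 (3 and 1 under median-of-ratios scaling and quantile normalization). Over all tested genes 27.1% rose and 31.9% fell at day 2, and 36.2% rose and 18.8% fell at day 14. The gene that fell was Birc5, better known for its part in cell division, with a log2 fold change of -5.34 at day 2. Birc3, the gene of cIAP2, went from 3.84 ± 0.707 to 7.998 ± 0.919 TPM at day 2 (SD, n = 3; log2 fold change 0.90, limma, adjusted p = 0.000605). Naip2, which also senses bacterial proteins, rose from 3.02 ± 0.131 to 7.07 ± 0.759 TPM at day 14 (log2 fold change 1.003, limma, adjusted p = 0.00027).

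In the death receptor pathway, 0 of 9 tested genes rose and 5 fell at day 2 by limma, and 1 rose and 1 fell at day 14. The shares over all tested genes were 27.1% higher and 31.9% lower at day 2, and 36.2% and 18.8% at day 14. Without Mir6236 and Rn45s the count at day 2 was 1 and 3, and median-of-ratios scaling gave 1 and 3 at day 14. Without day 0 replicate 1, 3 fell at day 2. At day 14, 2 rose without day 2 replicate 1 or 2 or day 14 replicate 1, 0 fell without day 0 replicate 2 and 2 fell without day 14 replicate 3. Ripk3, a kinase of necroptosis, and Fadd, the adaptor that recruits caspase 8, had log2 fold changes of -0.65 and -0.57 at day 2 (limma, adjusted p = 0.0106 and 0.00243). Tnfrsf1a, a receptor of TNF, rose from 52.7 ± 1.22 to 82.2 ± 7.87 TPM at day 14 (SD, n = 3; log2 fold change 0.63, limma, adjusted p = 0.000835).

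The next list held genes that act on transcription of the family. Of 13 tested genes 8 rose and 2 fell at day 2, beside 27.1% and 31.9% of all tested genes. At day 14, 9 rose and 1 fell (5 and 2 under median-of-ratios scaling), beside 36.2% and 18.8% of all tested genes. Trp53, the gene of p53, fell, from 238 ± 6.94 TPM at day 0 to 118.5 ± 15.0 TPM at day 2 and 168 ± 19.1 TPM on day 14 (SD, n = 3). Its log2 fold changes were -1.01 and -0.51 (limma, adjusted p = 9.2e-05 and 0.00576). E2f1 was the other gene that fell at day 2, and fell further. It was at 26.2 ± 3.44, 8.86 ± 1.67 and 22.8 ± 2.11 TPM on the 3 days (SD, n = 3). From day 0 it changed by -1.47 and -0.18 on the log2 scale (limma, adjusted p = 5.74e-05 and 0.344). E2f1 was not among the genes followed under the alternatives. Ddit3, the gene of CHOP, had log2 fold changes of 3.15 and 3.34 (limma, adjusted p = 8.8e-05 and 0.000124). Foxo3, a transcription factor known to act on Bcl2l11 and Bbc3, was at 7.24, 5.79 and 6.08 TPM at day 0, 61.6, 35.1 and 29.5 TPM at day 2, then 32.0, 18.6 and 18.9 TPM at day 14. Day 0 lay below all later libraries, and days 2 and 14 overlapped. The log2 fold change of Foxo3 was 2.48 at day 2 (SE 0.28, limma, adjusted p = 7.92e-05) and 1.67 at day 14 (SE 0.28, limma, adjusted p = 0.00113).

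Among 9 tested genes that act on turnover or placement of the proteins, 3 rose and 3 fell at day 2 (4 and 1 under quantile normalization), and 5 rose and 1 fell at day 14 (2 and 1 under quantile normalization). The counts at day 2 were near the shares over all tested genes, 27.1% higher and 31.9% lower, and the shares at day 14 were 36.2% and 18.8%. At day 14, 3 rose without day 0 replicate 1 or 2, day 2 replicate 3 or day 14 replicate 2 or 3, and 2 fell without day 2 replicate 2. Mapk8ip1, a scaffold of the JNK kinases, went from 4.91 ± 1.31 to 20.1 ± 3.54 TPM at day 2 and 15.5 ± 2.37 TPM on day 14 (SD, n = 3; log2 fold changes 1.85 and 1.496, limma, adjusted p = 6.01e-05 and 0.00034). Huwe1, a ubiquitin ligase that acts on MCL1, had log2 fold changes of 0.61 and 0.81 (limma, adjusted p = 0.0133 and 0.00377), and that at day 2 was lost without day 0 replicate 1 (adjusted p = 0.051). Btrc, the gene of a substrate receptor of a ubiquitin ligase, rose by 0.86 and 0.55 (limma, adjusted p = 0.00023 and 0.00359), the latter lost under quantile normalization (0.05, adjusted p = 0.706).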

How the data were processed

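The deposited values are gene TPM, made by the authors with Salmon, per the submitters' processing notes. Its version, index, build, annotation and strand setting were not given in the sources used here. Each column sums to 1000000, TPM keep no read totals, and the depth of each library is unknown, so no counting interval is given. Values were taken as log2(TPM + 1), and the 12693 rows with at least 1 TPM in at least 3 libraries were fitted in 1 model over all 9 libraries with a mean per day (limma 3.58.1 in R 4.3.3, eBayes with a trend). Tests were two-sided, with Benjamini-Hochberg adjustment across every tested row and calls under 0.05. The fit was also run on simulated data, with independent normal values and changes added to some genes at day 2 only. Such data do not bear on shifts in scaling between libraries. The members, lists and tests were chosen with earlier results of these data known. The text names all 10 members, every other tested gene of the family, and the 2 genes with the largest called change in each further list at day 2 and at day 14 (all called genes where 3 or fewer passed). Krt8, Krt18, Krt19, Cldn4, Cd68, Mir6236, Ggnbp1, Trp53 and E2f1 were named after their values were seen. The 21 alternatives changed pseudocount, filter, scaling, rows kept, variance model, samples or block. Upstream sequences are from RefSeq (GRCm38.p6), where 9 of the 10 members had an entry. Python 3.11.15 with matplotlib 3.10.9 drew the figures.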

Additional observations from a re-analysis of the deposited data

Results flagged for a closer look

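For 7 members the change from day 0 differed between day 2 and day 14 when the difference itself was tested (limma, day 14 against day 2). Day 0 cancels in that difference, so this is the comparison of day 14 with day 2 described above and not a further test. The change at day 14 less that at day 2 was 0.51 on the log2 scale for Bcl2 (adjusted p = 0.0322), 0.52 for Bcl2l1 (adjusted p = 0.0151), 0.42 for Mcl1 (adjusted p = 0.0243), 0.51 for Bak1 (adjusted p = 0.00956), 0.68 for Pmaip1 (adjusted p = 0.0287) and 0.66 for Bid (adjusted p = 0.0121). It was -0.48 for Bcl2l11 (adjusted p = 0.018). The median of all tested genes in the same comparison was 0.25, and the 6 positive differences were not called after quantile normalization or median-of-ratios scaling. Of 21 alternatives, the call was lost in 10 for Bcl2, 9 for Mcl1, 8 for Pmaip1, 4 for Bcl2l1, 3 for Bcl2l11 and 2 each for Bak1 and Bid. Among these were fits without 1 library. For Bcl2 they left out day 0 replicate 2, day 2 replicate 1 or 3, or day 14 replicate 2 or 3, for Mcl1 day 2 replicate 1 or 3 or any day 14 library, and for Pmaip1 day 2 replicate 2 or 3 or day 14 replicate 3. For Bcl2l1 they left out day 2 replicate 3 or day 14 replicate 3, and for Bcl2l11 day 2 replicate 1 or day 14 replicate 1.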

How the results depend on the processing

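Of the values of the 10 members under the alternatives, 553 kept direction and side of the threshold, 49 lost a call, 20 gained one and 5 changed sign, and Bmf had no value with a minimum mean of 5 TPM. The sign changes, none of a called value, were those of Mcl1 (-0.033 at day 14 against day 0 with median-of-ratios scaling, and 0.18 and 0.011 at day 2 with quantile normalization and without the 20 most abundant rows) and of Bax at day 14 against day 2 (-0.11 to 0.042 over the libraries left out, positive without day 2 replicate 1 or day 14 replicate 2). Among other named genes, day 2 values turned for Bad (0.054) and Becn1 (0.18) with quantile normalization and for Becn1 without the 20 most abundant rows (0.028), and Bcl2l12 at day 14 ran from -0.21 to 0.022 over the libraries left out, positive without day 0 replicate 1 or 3 or day 14 replicate 2. Members called at day 14 against day 2, which numbered 7 (6 higher, 1 lower), numbered 2 under median-of-ratios scaling and under quantile normalization (0 higher, 2 lower), 4 without the 20 most abundant rows (3 higher) and 4 with only the groups compared (3 higher), and 2 were lower with a pseudocount of 5. Leaving out each library in turn gave 3 to 8 members called in that comparison, 2 to 6 higher and 0 to 2 lower, 6 to 9 at day 14 against day 0 and 8 or 9 at day 2 against day 0. The fewest, 3, were called without day 2 replicate 3 or without day 14 replicate 3, and 4 without day 2 replicate 1. Of all tested genes 4601 rose and 2389 fell at day 14 against day 0, and 4027 were lower (3085 higher) with median-of-ratios scaling and 2843 higher (3363 lower) with quantile normalization. At day 14 against day 2, 3474 were higher and 481 lower. Median-of-ratios scaling gave 1572 and 1485, quantile normalization 1470 and 1905, and 818 were lower without the 20 most abundant rows, 291 with only the groups compared and 318 to 460 over the libraries left out. At day 2 against day 0 the split of 3438 higher and 4046 lower became 4563 and 3457 without the 20 most abundant rows. The cause of these shifts was not tested. With a replicate block, 9 members passed for day 2 and 8 for day 14, both against day 0, and 7 between the later days, the added call being Bmf at day 14 (0.91, limma, adjusted p = 0.0392). Same-numbered libraries correlated at -0.0709 to 0.318 once day means were removed, and 4 of 9 correlated best with their own number, so the numbers were not taken to pair the samples.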
